A study of Mus musculus with 30 samples.

Results

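The bulk transcriptome of a pluripotent stem cell line induced with chemicals (CiPSC line #1) was compared with that of an embryonic stem cell (ESC) line. All entries of the bulk RNA-seq table that reached 1 FPKM (fragments scaled to gene length and to the library total) in either library were included, and these were 12821 of 35275 entries. The lowest value that entered was 1.00 FPKM and the highest that stayed out was 0.999672 FPKM. For each gene the log2(FPKM + 1) of the CiPSC library minus that of the ESC library is called the log2 difference, and a gene is called higher or lower where this difference reached 1 in size (2-fold). A gene that reached 1 FPKM in only 1 of the 2 libraries could differ in only 1 direction.

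CiPSCs are made from fibroblasts with small molecules alone, by way of an intermediate that resembles extraembryonic endoderm (XEN-like) and a later stage in which genes of the early embryo are transiently on. ESCs are taken from the blastocyst. Both rest on the same transcription factor network, in which Pou5f1, Sox2 and Nanog maintain pluripotency and factors such as Esrrb, Klf2 and Tfcp2l1 mark its naive form. In ESC cultures a small and changing share of cells also switches on genes of the 2-cell embryo, with Zscan4 the best-known marker.

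The series holds 30 samples, 14 of them bulk RNA-seq libraries, with 1 library per condition. The CiPSC library came from line #1 of the strain C57BL/6J-Tg(GOFGFP)11Imeg/_brcxICR, the cross that also gave the fibroblasts (MEFs, from E13.5 embryos), the XEN-like cells and the other intermediates of MEF reprogramming. The ESC library came from E3.5 embryos of ICR x ICR. Per the labels, CiPSCs and ESCs were both kept on mitomycin C-treated MEF feeders in KnockOut DMEM with 10% serum replacement (KSR) and 10% FBS, with CHIR99021 at 3 µM, PD0325901 at 1 µM and LIF at 10 ng/ml. These agents activate Wnt signalling, block the MAP kinase kinase upstream of ERK and activate STAT3. With 1 library on each side, strain, origin and individual line cannot be told apart, no test of a difference was possible, and the intervals given with fold changes cover counting error only.

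Other libraries are used as landmarks, each a single library. They are the MEFs, a XEN-like line, intermediates at stage III day 21 (SIII D21, the latest of MEF reprogramming), and a sorted pair from stage II day 12 that was positive or negative for a Zscan4c promoter reporter (pZscan4c-Em+ and pZscan4c-Em-). The reporter pair was of 129S6/SvEvTac x C57BL/6Ncr and did not start from MEFs but from reporter ESCs that had been turned XEN-like. The remaining intermediates were from stage II day 12 and stage III days 4, 6 and 15. Read totals were 11494763 in the CiPSC library and 9237860 in the ESC library, within the range of 6601290 to 15294927 over all 14. Mitochondrial genes took 1.76% and 2.11% of the reads.

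The bulk of the transcriptome lay close to the diagonal. Of the 12821 genes, 230 (1.79%) were higher and 611 (4.77%) were lower in the CiPSC library, 841 (6.56%) in all. The 2-fold line was passed by the whole counting interval of the FPKM ratio for 112 of the higher side (0.874%) and 422 of the lower side (3.29%). The median log2 difference was -0.09, with the 5th and 95th percentiles at -0.97 and 0.71. At least 4-fold differences were found for 25 genes on the higher side and 82 on the lower, and 8-fold differences for 12 on each. In the CiPSC library 48 of the genes had 0 reads, and in the ESC library 25 did.

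**Figure D1:**
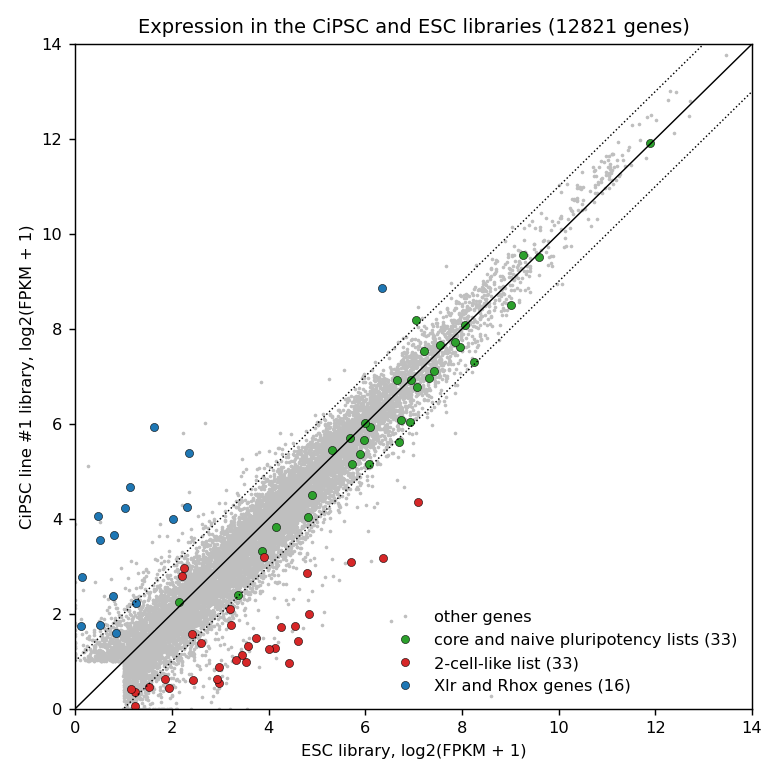
Each point is 1 of the 12821 genes, with its level in the ESC library on the horizontal axis and in the CiPSC library on the vertical axis, both as log2(FPKM + 1); the solid line marks equality and the dotted lines a 2-fold difference. Pluripotency genes (green) follow the diagonal, 2-cell-like genes (red) lie mostly below it and Xlr and Rhox genes (blue) all lie above it. Genes below 1 FPKM in 1 library could lie on only 1 side of the diagonal.

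Genes beyond 2-fold differed from the full set in abundance, in type of entry and in their levels elsewhere. The median of the larger of the 2 FPKM values was 7.62 for higher, 8.84 for lower and 13.7 for all genes. Median gene lengths were 1048, 1844.5 and 1786 bases. The part of abundance and length in the shares that follow was not tested. Predicted or clone-derived names (the Gm and Rik forms and the like) made up 10.3% of all genes, against 31.7% of the higher and 37.3% of the lower ones. Entries that RefSeq lists as pseudogenes made up 2.53% of all, 12.6% of the higher and 11.9% of the lower ones. Of the higher genes 50.4% reached 1 FPKM in MEFs, 53.04% in XEN-like cells and 84.3% at SIII D21, and of the lower genes 56.0%, 60.6% and 71.0% did. Over all 12821 genes these shares were 83.0%, 85.3% and 92.1%. In 53 of the 230 higher genes (23.04%) the ESC level was below every one of the other 12 libraries, and in 74 (32.2%) the CiPSC level was above every one of them. Of the 611 lower genes, the ESC level exceeded all 12 others in 219 (35.8%) and the CiPSC level lay below all 12 in 111 (18.2%). These genes were chosen by the CiPSC and ESC levels themselves, which favours such extremes, and shares over all genes were not computed. The shares therefore do not show which library departs from the series.

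The differences also ran with gene length. The median log2 difference was 0.17 in the group with the shortest models when genes were split by length into 10 groups of equal size (45 to 804 bases) and -0.39 in the group with the longest (4013 to 18817 bases). In the longest group, 0 genes were higher and 93 were lower. Levels were also measured against the median of the other 13 libraries, over only 6221 genes at 5 FPKM or more in every bulk library. These genes were split by length anew into 10 groups, which are not the groups above. Their shortest group stood at 0.45 in the CiPSC library and 0.13 in the ESC library, and their longest at -0.22 and 0.16. The length-adjusted value given below is the log2 difference after removing the median of the gene's length bin, and the text says where a named gene no longer reached 2-fold on it. Whether length has a part in these results was not tested further.

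**Figure D2:**
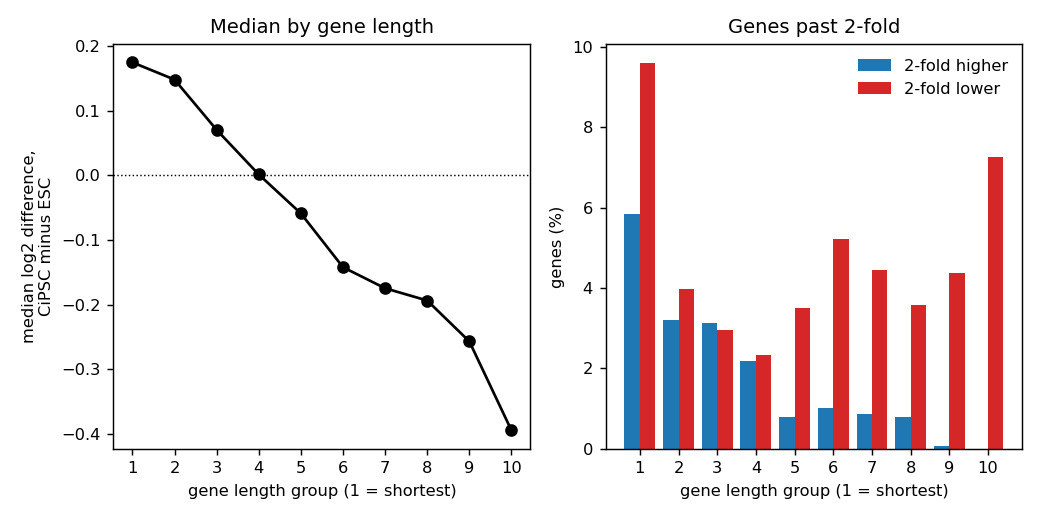
Left, the median log2 difference (CiPSC minus ESC) in 10 equal groups ordered by gene length, for the 12815 of 12821 genes with a recovered length. Right, the percent of each group that was 2-fold higher or lower in the CiPSC library. The median falls from 0.17 in the shortest group to -0.39 in the longest, where no gene was higher.

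The pluripotency network was present in both libraries at similar levels. Of 30 naive pluripotency genes listed, all 30 were measured, 1 was higher and 1 lower, and the median log2 difference was -0.31 (length-adjusted -0.16), beside -0.09 over all genes. Pou5f1, which encodes OCT4, stood at 756 FPKM in the CiPSC and 616 FPKM in the ESC library, Sox2 at 211 and 232 FPKM, and Nanog at 364 and 518 FPKM. In MEFs these 3 factors were at 0.60 FPKM or less, so both lines carried the defining markers of their label.

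Among the naive factors, Zfp42 (REX1) was at 269 FPKM in the CiPSC and 265 FPKM in the ESC library. Dppa5a, the most abundant of the list, was at 3863 and 3775 FPKM. Esrrb was at 196 and 248 FPKM, Klf2 at 184 and 147 FPKM, and Klf4 at 125 and 158 FPKM. Tfcp2l1, a naive factor downstream of LIF and STAT3, was lower in the CiPSC library at 47.8 against 102.8 FPKM, a 2.15-fold difference (counting interval 2.05 to 2.26). Its length-adjusted value was -0.76, short of the 2-fold line. Tbx3, which acts beside it, was at 34.6 and 66.5 FPKM. Utf1, a chromatin-bound factor of undifferentiated cells, went the other way at 290 against 131 FPKM (2.21-fold, 2.09 to 2.35), and it was at 63.0 FPKM at SIII D21.

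Genes of the formative and primed states gave no opposite picture. Of 26 listed, 19 were measured, 0 were higher and 1 was lower. That gene was Lin28b, which blocks let-7 maturation, at 1.13 against 4.47 FPKM (3.96-fold, 3.02 to 5.26; length-adjusted -0.90), while its relative Lin28a stood at 120 and 123 FPKM.

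Readouts of the shared culture signals were close. Of 14 measured Wnt targets, 0 were higher and 1 was lower, the Wnt deacylase gene Notum (4.36 against 10.9 FPKM). Axin2, the general feedback target, was at 5.63 and 8.79 FPKM. None of 16 measured ERK feedback genes passed the 2-fold line in either direction. Etv4 was at 84.6 and 68.2 FPKM, Etv5 at 155 and 186 FPKM, and Spry2 at 21.2 and 29.3 FPKM. Of 16 measured LIF and STAT3 genes, Tfcp2l1 was the only one past the line.

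Of 20 measured genes that write, read or erase DNA methylation, 1 was higher and 1 lower, beside 6.56% of all genes past 2-fold, so the list as a whole did not stand apart by count. Dnmt3l, the catalytically inactive partner of the de novo methyltransferases, was higher in the CiPSC library at 211 against 101 FPKM (2.08-fold, 1.94 to 2.23). Dnmt3b was at 48.2 and 35.4 FPKM. Tet1, which oxidises methylcytosine, was lower at 25.3 against 65.3 FPKM (2.58-fold, 2.43 to 2.74), and Tet2 stood at 4.26 and 9.27 FPKM. The maintenance pair was close, with Uhrf1 at 369 and 370 FPKM and Dnmt1 at 69.5 and 86.6 FPKM. The length-adjusted values were 0.99 for Dnmt3l and -0.88 for Tet1, both inside the 2-fold line.

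Chromatin genes outside DNA methylation had 1 higher and 2 lower members of 36 measured, beside 1.79% and 4.77% of all genes. The higher one was Utf1. Mtf2, a Polycomb accessory protein gene, was at 111 against 230 FPKM, with a length-adjusted value of -0.89. Atrx, an X-linked remodeller that deposits histone H3.3, was at 75.3 against 202 FPKM (2.68-fold, 2.51 to 2.86; length-adjusted -1.37). Rif1, a telomere and replication timing factor, was at 41.0 against 93.3 FPKM (length-adjusted -0.89). Only Atrx and Utf1 of these 4 stayed beyond 2-fold after length adjustment.

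The 2-cell-like genes formed the largest block of lower genes. Of 48 listed, 33 were measured, 0 were higher and 27 were lower in the CiPSC library, with a median log2 difference of -2.24 (length-adjusted -2.15). Some of the 33, such as Zscan4b, Tcstv1, Tcstv3, Zfp352, Usp17lc, Sp110 and Gm13078, were below 1 FPKM in the CiPSC library. They entered through the ESC library alone, so the filter fixed their direction and has a part in the count and median. The summed level of all 42 listed genes with an entry, which does not depend on this filter, was 95.7 FPKM in the CiPSC library and 579 FPKM in the ESC library. In a bulk library, fewer cells that express such genes and less RNA per cell cannot be told apart.

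The Zscan4 genes encode SCAN-domain zinc finger proteins linked to telomere lengthening in mouse ESCs. Zscan4f was at 19.4 FPKM in the CiPSC and 136 FPKM in the ESC library, a 7.01-fold difference (6.24 to 7.88). Zscan4d was at 7.52 and 51.4 FPKM, and Zscan4c at 6.21 and 26.7 FPKM. Zscan4b was at 0.94 and 20.4 FPKM (21.7-fold, 13.7 to 36.5), and Zscan4e at 1.45 and 16.6 FPKM. All 5 of these neighbours on chromosome 7 were lower, and together they summed to 35.5 against 251 FPKM. Across the other libraries Zscan4f was at 0 FPKM in MEFs and XEN-like cells, 0.16 FPKM at SIII D21 and 2759 FPKM in pZscan4c-Em+ cells, so both lines lay between those ends.

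The promoter windows of 3 Zscan4 genes are shown because the genes move together and are near-copies of each other. They run from 250 bases before to 50 after the RefSeq start (build GRCm38.p6), 5′ to 3′ on the gene's strand, with CpG dinucleotides in capitals. Zscan4c is at chr7:11005495-11005794 (plus strand), Zscan4d at chr7:11166099-11166398 (minus strand) and Zscan4f at chr7:11397665-11397964 (plus strand).
Zscan4c: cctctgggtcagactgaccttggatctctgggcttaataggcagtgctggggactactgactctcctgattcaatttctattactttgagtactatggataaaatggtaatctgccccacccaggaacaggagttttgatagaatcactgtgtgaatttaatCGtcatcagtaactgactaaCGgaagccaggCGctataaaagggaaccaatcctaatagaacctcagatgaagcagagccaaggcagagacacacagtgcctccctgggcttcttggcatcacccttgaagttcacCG
Zscan4d: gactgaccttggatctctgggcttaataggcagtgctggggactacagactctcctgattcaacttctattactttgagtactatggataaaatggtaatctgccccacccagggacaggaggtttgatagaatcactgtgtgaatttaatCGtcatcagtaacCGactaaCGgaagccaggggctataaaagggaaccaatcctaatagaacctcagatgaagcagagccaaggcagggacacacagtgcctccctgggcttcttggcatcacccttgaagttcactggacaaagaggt
Zscan4f: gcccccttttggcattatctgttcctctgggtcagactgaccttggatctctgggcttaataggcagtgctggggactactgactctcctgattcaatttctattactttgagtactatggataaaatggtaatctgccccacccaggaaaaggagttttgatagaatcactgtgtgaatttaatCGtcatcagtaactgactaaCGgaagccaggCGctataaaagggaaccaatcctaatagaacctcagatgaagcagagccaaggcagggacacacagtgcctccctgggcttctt
The windows hold 4, 3 and 3 CpGs. The longest run of bases shared without a mismatch was 127 between Zscan4c and Zscan4f, 83 between Zscan4d and Zscan4f and 55 between Zscan4c and Zscan4d. All 3 hold the letters TATAAA, searched on both strands, which 6.72% of 9287 windows of measured genes did. Only promoter windows were compared, not transcripts, and how reads were split between single Zscan4 genes was not tested. Values of single Zscan4 genes are therefore uncertain, and the sum over them depends less on this split.

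Other 2-cell genes followed the same order of levels. Tmem92 was at 3.01 FPKM in the CiPSC and 27.4 FPKM in the ESC library. Tcstv1, of a gene group found with 2-cell transcripts, was at 0.97 and 10.6 FPKM, and Tcstv3 at 0.51 and 4.46 FPKM. Pramef25, of the PRAME family, was at 1.81 and 12.3 FPKM. Gm5039 was at 8.00 and 82.1 FPKM (10.3-fold, 7.38 to 14.6). Usp17lc, a deubiquitinating enzyme gene, was at 0.47 and 6.81 FPKM. Zfp352, a zinc finger retrogene, was barely present in either, at 0.044 FPKM from 1 read and 1.38 FPKM from 25 reads. Pramel6 and Pramel7, also on the list but known for roles in naive ESCs, were not lower, at 6.78 against 3.76 FPKM and 5.93 against 3.63 FPKM.

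Some genes past 2-fold were neighbours. Along the chromosomes, 15 stretches of 3 or more consecutive measured genes were all lower, holding 79 genes, and 6 were all higher, holding 28. These were 15.2% of the 521 lower and 13.2% of the 212 higher genes with a position, so the shares were alike. The longest lower stretch was 17 genes on chromosome 12 from Gm8300 to Gm5039, at chr12:87514316-88321762, which summed to 41.3 FPKM in the CiPSC and 352 FPKM in the ESC library. It summed to 3067 FPKM in pZscan4c-Em+ cells, 81.7 FPKM in pZscan4c-Em- cells and 1.99 FPKM at SIII D21. On chromosome 13, 8 genes from Tcstv1 to Tcstv3 summed to 21.4 against 145 FPKM. On chromosome 11, 5 genes from Tmem92 to Gm11544 summed to 11.5 against 77.8 FPKM. Stretches with Pramef25 on chromosome 4 (5 genes, 2.79 against 23.5 FPKM) and with Usp17l genes on chromosome 7 (4 genes, 7.42 against 27.4 FPKM) did likewise. How reads were split between the genes of a stretch was not tested.

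A stretch of 6 Gm144 genes on chromosome 2, from Gm14421 to Gm14412, was among those lower without this link to the reporter. It summed to 14.3 FPKM in the CiPSC and 80.8 FPKM in the ESC library, and to 7.73 FPKM in pZscan4c-Em+ and 4.45 FPKM in pZscan4c-Em- cells. Its highest sum in the 12 other libraries was 26.1 FPKM, at SIII D21. The lower stretches from Gm14391 to Gm4723, from 6820431F20Rik to Gm21092 and from A830080D01Rik to Gm15186 also stayed within 2-fold between the reporter libraries. The remaining lower stretches had sums more than 2-fold higher in pZscan4c-Em+ cells.

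The reporter pair was used to see how many lower genes are high in Zscan4c-positive cells in libraries that did not enter the comparison. Of the 11622 genes at 1 FPKM or more in that pair, 5.94% were at least 2-fold higher in pZscan4c-Em+ than in pZscan4c-Em- cells. Of the lower genes 493 were measured there, and 168 (34.1%) were higher in the positive cells. Among genes at least 4-fold lower in the CiPSC library the share was 53 of 70 (75.7%). Outside the 2-cell-like list and the stretches of neighbours it was 107 of 419 (25.5%), while among the genes higher in the CiPSC library it was 9 of 169 (5.33%). Mitochondrial genes took 7.37% of reads in the positive and 14.1% in the negative library, against 1.76% and 2.11% in the compared pair, and the part of this in the shares was not tested.

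**Figure D3:**
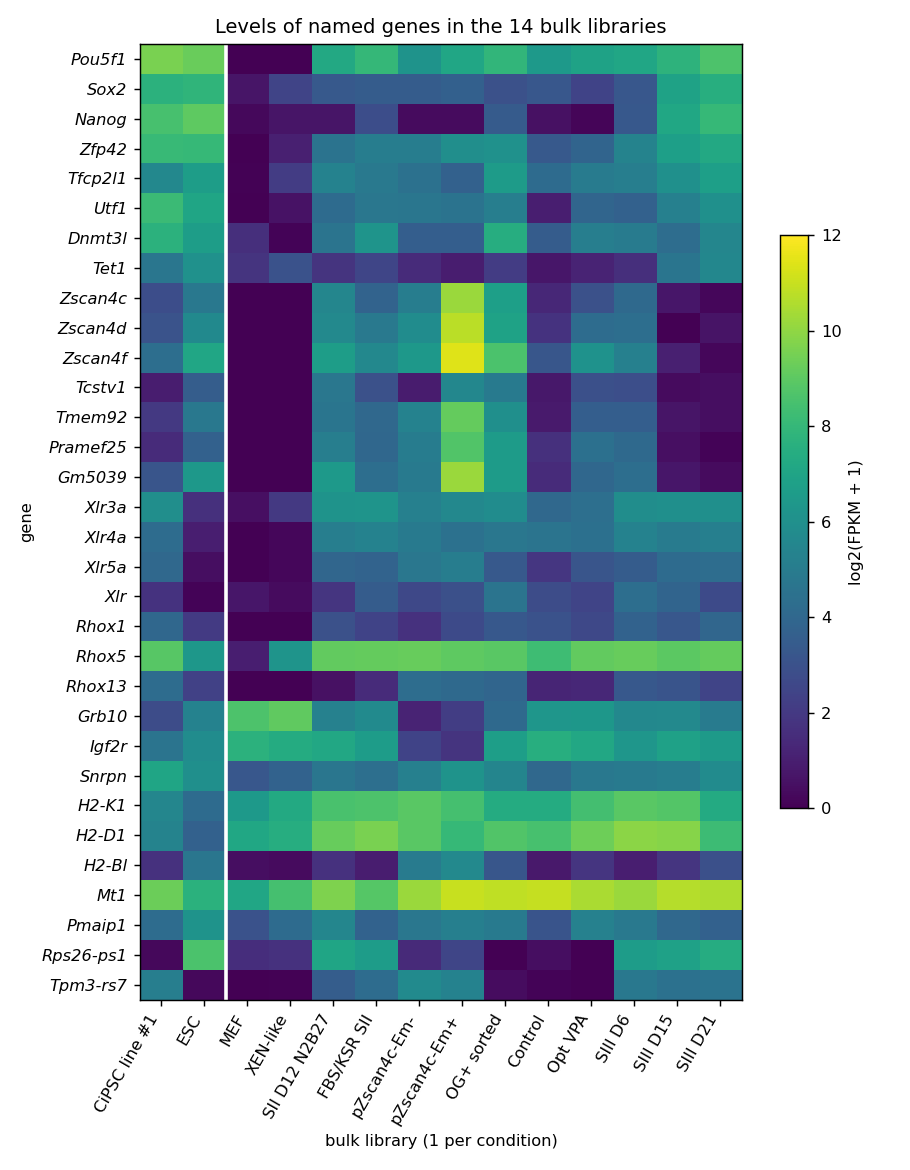
Heat map of log2(FPKM + 1) for 32 named genes (rows) in the 14 bulk libraries (columns, 1 library each), with the compared pair left of the white line. Zscan4f reaches 2759 FPKM in pZscan4c-Em+ cells and 136 FPKM in the ESC library, and Xlr3a is at 0.40 to 2.96 FPKM in the ESC, MEF and XEN-like libraries and at 15.7 FPKM or more in the rest.

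The higher genes were concentrated on the X chromosome. Of 444 measured X-linked genes 36 (8.11%) were higher, against 1.57% of the genes not on it, and 27 were lower. The median over the chromosome was -0.13 (length-adjusted -0.02), close to the -0.09 over all genes. The 36 genes summed to 1151 FPKM in the CiPSC and 244 FPKM in the ESC library. At SIII D21, 33 of them reached 1 FPKM, against 5 in MEFs and 8 in XEN-like cells. Over all 12821 genes the shares at 1 FPKM were 92.1% at SIII D21, 83.0% in MEFs and 85.3% in XEN-like cells. The 36 genes summed to 1188 FPKM at SIII D21 and 66.1 FPKM in MEFs. In XEN-like cells they summed to 1364 FPKM, of which Cited1 alone held 1228 FPKM.

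The Xlr genes (X-linked lymphocyte-regulated, relatives of the synaptonemal complex gene Sycp3) were higher in all 10 of 10 measured cases. Of these, Xlr3b, Xlr4b, Xlr4c, Xlr5a, Xlr5b and Xlr were below 1 FPKM in the ESC library. They entered through the CiPSC library alone, so the filter fixed the direction of their difference. Xlr3a was at 59.7 FPKM from 877 reads in the CiPSC and 2.12 FPKM from 25 reads in the ESC library, a 28.2-fold difference (18.97 to 43.8). Xlr3c was at 40.9 and 4.10 FPKM, Xlr4a at 17.8 and 1.03 FPKM, and Xlr5a at 15.7 and 0.38 FPKM (40.8-fold, 17.3 to 127). Xlr, the founding member, was at 2.36 FPKM and 0.084 FPKM, the latter from 1 read. How reads were split between these relatives was not tested, so the 10 cases are not known to be separate observations. The 10 genes summed to 193 FPKM in the CiPSC and 10.9 FPKM in the ESC library.

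Set against the other libraries, the ESC sum lay above those of MEFs and XEN-like cells and below those of all intermediates. The CiPSC sum lay among those of the intermediates. The same sum was 2.36 FPKM in MEFs and 6.29 FPKM in XEN-like cells, 77.3 and 89.0 FPKM in the stage III day 4 pair, and 186 to 242 FPKM in the 8 remaining intermediates, reporter pair included. Xlr3a itself was at 0.40 FPKM in MEFs, 2.96 FPKM in XEN-like cells and 61.5 FPKM at SIII D21.

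Most Xlr genes lay in 1 stretch of 11 consecutive measured genes that were all higher, from Pnma5 to Xlr5c at chrX:73033981-73293863. It also holds F8a (4.69 against 1.17 FPKM) and Pnma5, of the paraneoplastic antigen family (34.1 against 14.6 FPKM). In a second stretch, chrX:53724655-54098855, all 4 measured genes were higher, among them Xlr and 1700013H16Rik, which was at 116 against 13.4 FPKM (8.71-fold, 7.37 to 10.4).

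The Rhox genes are a cluster of homeobox genes known from testis, ovary, placenta and germ cells, and several carry DNA methylation in somatic cells. Of 31 listed, 6 were measured, 4 were higher and 0 lower, with a median log2 difference of 1.60 (length-adjusted 1.40). Rhox2a and Rhox9 entered through the CiPSC library alone, so the filter fixed their direction. Rhox5, long known as Pem, was at 466 FPKM in the CiPSC and 80.0 FPKM in the ESC library, a 5.82-fold difference (5.31 to 6.40). It was at 1.03 FPKM in MEFs, 72.6 FPKM in XEN-like cells and 578 FPKM at SIII D21. Rhox1 was at 14.9 and 3.06 FPKM, Rhox13 at 18.1 and 3.95 FPKM, and Rhox2a at 2.39 and 0.42 FPKM. Rhox6 (3.70 and 1.39 FPKM) and Rhox9 (2.00 and 0.79 FPKM) stayed just inside the 2-fold line, with log2 differences of 0.97 and 0.75.

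Promoter windows of the leading X-linked genes are shown, drawn as above with CpGs in capitals, because these genes differ together and lie on 1 chromosome. Rhox5 is at chrX:37754358-37754657 (plus strand), Xlr3a at chrX:73097046-73097345 (minus strand), Xlr4a at chrX:73082458-73082757 (minus strand) and Xlr5a at chrX:73117653-73117952 (minus strand).
Rhox5: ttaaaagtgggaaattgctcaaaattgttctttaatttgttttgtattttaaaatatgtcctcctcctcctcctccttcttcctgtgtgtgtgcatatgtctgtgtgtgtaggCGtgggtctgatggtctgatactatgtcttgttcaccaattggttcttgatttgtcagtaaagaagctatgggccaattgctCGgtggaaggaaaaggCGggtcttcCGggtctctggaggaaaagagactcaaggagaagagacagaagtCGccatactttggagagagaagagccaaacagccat
Xlr3a: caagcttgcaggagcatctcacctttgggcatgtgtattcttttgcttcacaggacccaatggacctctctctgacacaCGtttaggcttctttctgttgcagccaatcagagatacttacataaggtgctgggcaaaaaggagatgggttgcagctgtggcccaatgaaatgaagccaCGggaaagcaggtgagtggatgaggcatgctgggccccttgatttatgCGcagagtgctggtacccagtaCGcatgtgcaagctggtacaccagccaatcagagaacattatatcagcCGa
Xlr4a: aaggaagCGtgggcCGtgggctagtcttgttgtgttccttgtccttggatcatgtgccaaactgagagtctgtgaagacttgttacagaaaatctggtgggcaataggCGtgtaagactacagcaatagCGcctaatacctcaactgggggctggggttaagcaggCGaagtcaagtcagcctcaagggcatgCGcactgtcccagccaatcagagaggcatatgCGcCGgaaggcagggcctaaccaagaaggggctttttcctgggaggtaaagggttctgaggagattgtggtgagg
Xlr5a: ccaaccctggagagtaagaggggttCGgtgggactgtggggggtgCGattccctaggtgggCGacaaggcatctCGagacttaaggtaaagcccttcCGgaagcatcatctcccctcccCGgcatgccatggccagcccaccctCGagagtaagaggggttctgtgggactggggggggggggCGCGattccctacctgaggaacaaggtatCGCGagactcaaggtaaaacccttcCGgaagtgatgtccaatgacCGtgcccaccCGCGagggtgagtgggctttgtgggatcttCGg
The windows of Rhox5, Xlr3a, Xlr4a and Xlr5a hold 5, 5, 8 and 16 CpGs. Over the 31 of 36 higher X-linked genes with a window the median was 8 CpGs, and over the 371 of 444 measured X-linked genes with one it was 16. At least 20 CpGs were found in 1 of the 31 (3.23%) and in 136 of the 371 (36.7%). The longest run shared without a mismatch by any pair of the 4 windows was 15 bases, between Xlr3a and Xlr4a, and none of the 4 holds TATAAA on either strand. Methylation of these windows was not analysed here.

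Outside these families 22 more X-linked genes were higher. Tex13, a testis gene, was at 11.4 against 2.35 FPKM. Cited1, a transcriptional coactivator, was at 7.37 against 1.40 FPKM and far higher in XEN-like cells at 1228 FPKM. Magea4, of the MAGE cancer and testis antigens, was at 2.75 and 0.46 FPKM, Efhc2 at 6.81 and 0.93 FPKM, and Eras, a RAS-like gene of ESCs, at 43.1 and 18.3 FPKM. These last 3 were picked after their values were seen.

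The wider germline list had 6 higher and 1 lower member of 43 measured, beside 1.79% and 4.77% of all genes, with a median of 0.09. Of the 6 higher, 5 were the X-linked Xlr3a, Xlr3b, Xlr4a, Xlr5a and Tex13. The other was Tex101, a germ cell surface gene, at 3.05 against 0.62 FPKM. Ctcfl, the testis paralogue of the insulator factor gene Ctcf, was lower at 0.19 FPKM from 7 reads against 5.15 FPKM from 152 reads (27.02-fold, 12.8 to 68.3). Dazl, a germ cell RNA-binding protein gene, was close at 22.9 and 27.4 FPKM.

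Both lines carried Y-linked transcripts and almost no Xist, the RNA that silences an X chromosome in female cells. Xist was at 0.15 and 0.35 FPKM. Eif2s3y was at 67.0 and 100.2 FPKM, Uty at 5.28 and 8.10 FPKM and Kdm5d at 2.29 and 2.77 FPKM. Ddx3y was lower in the CiPSC library at 10.3 against 24.3 FPKM (2.36-fold, 2.07 to 2.70), with a length-adjusted value of -0.95.

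Imprinted genes, which are expressed from 1 parental copy, were more often lower than higher. Over all genes 4.77% were lower and 1.79% higher. Of 20 measured genes expressed from the maternal copy, 0 were higher and 4 lower, with a median of -0.33. Grb10, an adaptor that damps insulin receptor signalling, was at 5.91 FPKM in the CiPSC and 39.1 FPKM in the ESC library (6.61-fold, 5.50 to 7.99). It was at 406 FPKM in MEFs, 541 FPKM in XEN-like cells and 31.3 FPKM at SIII D21. Only the reporter pair lay below the CiPSC level, at 1.32 and 3.54 FPKM. Igf2r, the receptor that clears IGF2, was at 23.7 and 56.9 FPKM, Cobl, an actin nucleator gene, at 18.2 and 42.8 FPKM, and the cell cycle inhibitor gene Cdkn1c at 1.23 and 3.57 FPKM. Cobl and Cdkn1c fell inside the 2-fold line after length adjustment, at -0.96 and -0.91.

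Of 23 measured genes expressed from the paternal copy, 2 were higher and 4 lower, with a median of -0.06. Snrpn, a splicing protein gene, was higher at 132 against 61.5 FPKM (2.15-fold, 2.00 to 2.32) and was at 8.67 to 69.9 FPKM in the 12 other libraries, so the CiPSC level was the highest of all. Dlk1, a Notch ligand relative, was higher at 3.29 against 1.08 FPKM. Igf2 was at 0.26 and 1.84 FPKM, Zdbf2 at 3.99 and 10.3 FPKM, Peg10 at 6.87 and 16.0 FPKM, and Peg3 at 8.74 and 19.22 FPKM. Of these 4, only Igf2 kept a length-adjusted value beyond 2-fold (-1.02).

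The non-coding RNAs of the Dlk1-Dio3 cluster, whose silencing has been reported in some iPSC lines made with transcription factors, were present in the CiPSC library. Meg3 was at 44.7 and 70.6 FPKM, Rian at 141 and 275 FPKM, and Mirg at 13.1 and 16.3 FPKM. None passed the 2-fold line. In MEFs Meg3 was at 323 FPKM and Rian at 515 FPKM. H19 was at 21.7 and 30.5 FPKM.

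**Figure D4:**
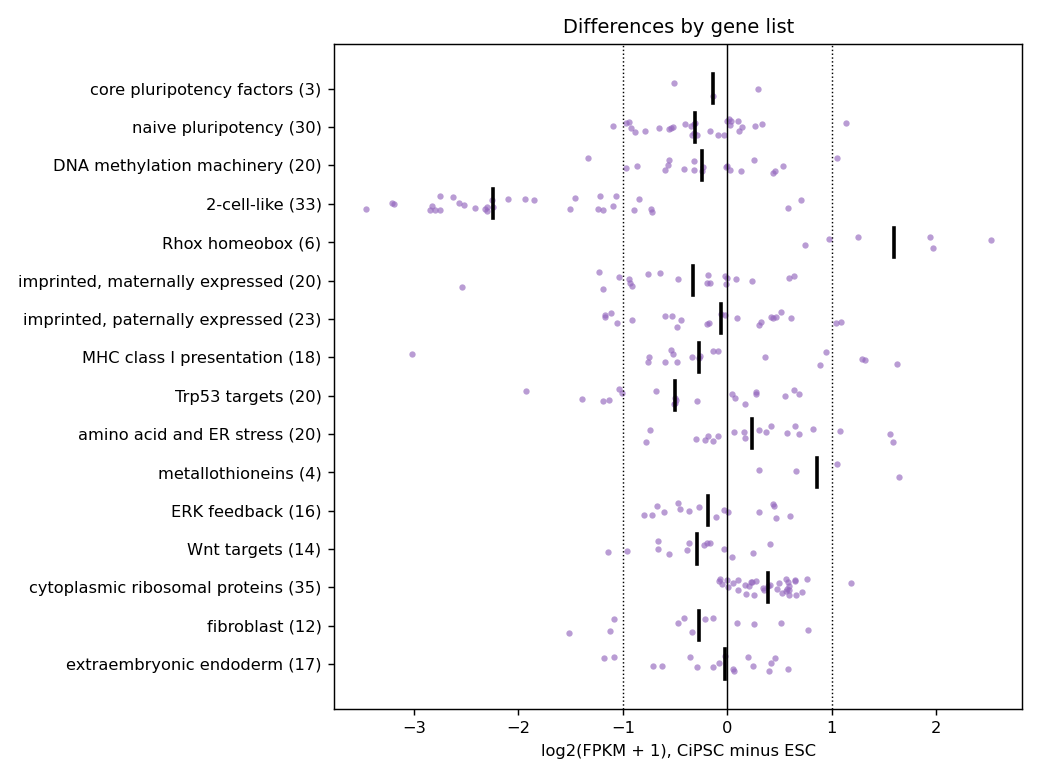
Log2 differences (CiPSC minus ESC) of the measured members of 16 gene lists, 1 point per gene, with the list median as a black bar, the number measured in brackets and dotted lines at 2-fold. The 2-cell-like list has its median at -2.24 and the Rhox list at 1.60, while the remaining medians shown lie between -0.50 and 0.86. Some members of the 2-cell-like and Rhox lists entered through 1 library only.

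Class I antigen presentation genes split. Of 18 measured, 3 were higher and 1 lower, beside 1.79% and 4.77% of all genes. The classical class I genes H2-K1 and H2-D1 were higher at 44.2 against 17.5 FPKM and 40.5 against 12.5 FPKM, and both were higher still in each of the 12 other libraries, at 85.9 to 489 FPKM for H2-K1. H2-Q1 was at 1.49 FPKM from 39 reads against 0 reads, at least 10.4-fold higher by the floor of 3 reads per library. H2-Bl was lower at 2.26 against 25.4 FPKM (11.3-fold, 7.16 to 18.6). B2m, the shared light chain gene, was at 15.3 and 23.5 FPKM. Class I genes are highly variable between mouse strains, and the part of strain in these values was not tested.

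Stress pathways differed in a few members each, beside 1.79% of all genes higher and 4.77% lower. Of 20 measured Trp53 targets, 0 were higher and 6 were lower, with a median of -0.50 (length-adjusted -0.31). Pmaip1 (NOXA, which promotes cell death) was at 18.0 and 71.4 FPKM (3.96-fold, 3.60 to 4.37). Perp was at 4.58 and 13.6 FPKM, and Mdm2, the ubiquitin ligase that degrades p53, at 50.7 and 105 FPKM. The other 3 lower members were Trp53inp1, Plk2 and Polk. After length adjustment only Pmaip1 and Perp stayed beyond 2-fold. Cdkn1a, the best-known target, was at 132 and 161 FPKM, and the cell death genes Bax and Bbc3 leaned the other way at 569 against 365 FPKM and 58.2 against 35.6 FPKM.

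Of 20 measured genes of amino acid and endoplasmic reticulum stress, 3 were higher and 0 lower, beside 1.79% and 4.77% of all genes. Trib3, a pseudokinase gene induced by ATF4, was at 41.2 and 13.02 FPKM, Chac1, a glutathione-degrading enzyme gene, at 6.22 and 1.45 FPKM, and Herpud1 at 14.6 and 6.36 FPKM. Their regulator Atf4 was at 156 and 149 FPKM. Metallothioneins, which bind zinc and other metals, had 2 higher of 4 measured. Mt1 was at 638 and 203 FPKM (3.14-fold, 2.93 to 3.37) and Mt2 at 649 and 312 FPKM, and at SIII D21 they were at 1447 and 1589.9 FPKM. The length-adjusted value of Mt2 was 0.98, just inside the 2-fold line. Cdkn2a, which encodes the cell cycle inhibitors INK4A and ARF, was at 32.1 and 10.5 FPKM (3.04-fold, 2.39 to 3.91). It was at 12.4 FPKM in MEFs, 65.2 FPKM in XEN-like cells and 34.4 FPKM at SIII D21. The range over the 12 other libraries was 7.52 to 76.1 FPKM.

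Ribosomal and energy genes lay slightly above the rest. Of 35 ribosomal protein genes 31 had a log2 difference above 0, the median was 0.39 (length-adjusted 0.33), and 1, Rpl35 (500 against 219 FPKM), was past 2-fold. All 30 nuclear genes of oxidative phosphorylation stayed within 2-fold, with a median of 0.24 (length-adjusted 0.16). Glycolysis genes had a median of 0.22 over 22 genes. Mitochondrially encoded genes lay the other way with a median of -0.41 over 12 genes, 1 of them higher and 2 lower. The 28 proliferation genes had a median of 0.05 and none was past 2-fold. The lists for sterol synthesis, one-carbon metabolism, the interferon response, Hox genes, immediate early genes and epithelial genes likewise had 0 members past 2-fold in either direction.

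Markers of other cell types summed to far less than in the libraries of those cells, although single members were abundant in both. Of 34 fibroblast genes 12 reached 1 FPKM in either library, 0 of them higher and 3 lower, and the list summed to 570 FPKM in the CiPSC, 707 FPKM in the ESC and 41158 FPKM in the MEF library. Of the markers that define fibroblasts here, Twist2 was at 0 in both, Col3a1, Postn and Prrx1 were at 0 in the ESC library and at 0.24 FPKM or less in the CiPSC library, Col1a2 was at 0.39 and 0.29 FPKM, and Col1a1 at 1.56 and 1.40 FPKM. Other members were present in both, with Sparc at 228 and 251 FPKM, Vim at 180 and 126 FPKM, Zeb1 at 9.54 and 7.81 FPKM, Mmp2 at 3.61 and 4.81 FPKM, and Twist1 at 1.88 and 2.34 FPKM. The lower genes were Fn1 (135 against 296 FPKM, length-adjusted -0.80), Fbln2 (1.85 against 7.17 FPKM) and the defining marker Thy1 (0.85 against 2.93 FPKM). The part of feeder cells in these 3 values was not tested.

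Of 34 extraembryonic endoderm genes 17 were measured, 0 higher and 2 lower, summing to 1693 and 2141 FPKM against 24207 FPKM in XEN-like cells. The lower genes were the laminin chains Lamb1 (11.0 against 26.1 FPKM) and Lamc1 (112 against 239 FPKM, length-adjusted -0.93). The defining factors Gata4 (3.00 and 1.99 FPKM), Gata6 (0.90 and 0.47 FPKM) and Sox17 (0.97 and 0.28 FPKM) were at 3.00 FPKM or less. Of 16 measured trophoblast genes 1 was higher, the X-linked Cited1. Among the defining trophoblast markers, Cdx2 and Elf5 were at 0.083 FPKM or less in both. Eomes was at 3.55 and 3.98 FPKM, and Gata3 at 1.14 and 0.24 FPKM. Other list members were present in both, with Tfap2c at 75.1 and 77.0 FPKM and Tead4 at 17.2 and 15.7 FPKM. For mesoderm, Mesp1 was at 0 in both and T at 0.52 and 1.95 FPKM. The neural markers Sox1 and Pax6 were at 1.71 and 1.95 FPKM and at 1.29 and 0.25 FPKM.

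Some of the largest single differences fell on processed copies of other genes. Rps26-ps1 was at 0.21 FPKM from 1 read in the CiPSC and 389 FPKM from 1475 reads in the ESC library. In the other direction Tpm3-rs7 was at 33.7 and 0.21 FPKM (164-fold, 63.7 to 602). Across the 12 other libraries both were either nearly silent or abundant. Rps26-ps1 was at 0 to 4.70 FPKM in 7 of them and at 98.7 to 169 FPKM in 5, Tpm3-rs7 at 0 to 0.30 FPKM in 5 and at 10.8 to 51.7 FPKM in 7. The 5 were the unsorted stage II and the SIII D6, D15 and D21 intermediates. Of the libraries from the same cross as the CiPSC line, the sorted stage II cells and the stage III day 4 pair were at 0.37 FPKM or less, and the MEFs and XEN-like cells at 2.00 and 2.30 FPKM. Reads of such copies cannot be told apart from those of their parent genes or alleles of them from these files, so their levels are uncertain.

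Among the largest differences in genes outside the lists and stretches of neighbours were, on the higher side, Baiap2l1, a membrane-curving actin regulator gene, at 55.0 and 3.66 FPKM (15.0-fold, 11.7 to 19.5), Cdc42ep2, a CDC42 effector gene, at 14.4 and 0.44 FPKM, and Ipp, a kelch-like gene, at 63.5 and 5.42 FPKM. The CiPSC level was the highest of all 14 libraries for each of the 3. On the lower side stood Tnfrsf22, a decoy receptor gene, at 24.5 and 110 FPKM, Pls3, an actin-bundling protein gene, at 3.60 and 20.2 FPKM, and Vcan, a matrix proteoglycan gene, at 1.81 and 11.1 FPKM (6.11-fold, 4.80 to 7.86). Tnfrsf22 was at 937 FPKM in pZscan4c-Em+ and 45.1 FPKM in pZscan4c-Em- cells, the order of the 2-cell-like genes.

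By position, chromosome 8 stood apart from the other chromosomes with more than 10 measured genes. Of its 666 genes 29 (4.35%) were higher, against 1.79% over all, and 13 (1.95%) were lower, against 4.77%. Its median log2 difference was 0.19 (length-adjusted 0.30), while those of the other autosomes ran from -0.25 to 0.03 (length-adjusted -0.12 to 0.10). Among 469 of its genes at 5 FPKM or more in both libraries, 75.9% had a length-adjusted value above 0. The length-adjusted median was above 0 in every 20-Mb window, from 0.08 at 40 to 60 Mb to 0.43 beyond 120 Mb.

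Beside Mt1, Mt2 and Herpud1, the higher genes of chromosome 8 included Ssbp4, a DNA-binding protein gene (157 against 72.2 FPKM), and Cope, a coatomer subunit gene (127 against 61.2 FPKM). Both were picked after their values were seen. Measured against the median of the other 13 libraries over 6221 genes, the 361 on chromosome 8 stood at 0.18 in the CiPSC and -0.10 in the ESC library, at 0.53 and 0.48 in the reporter pair, and at -0.14 to 0.04 in the 10 others. Copy number of DNA was not measured.

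**Figure D5:**
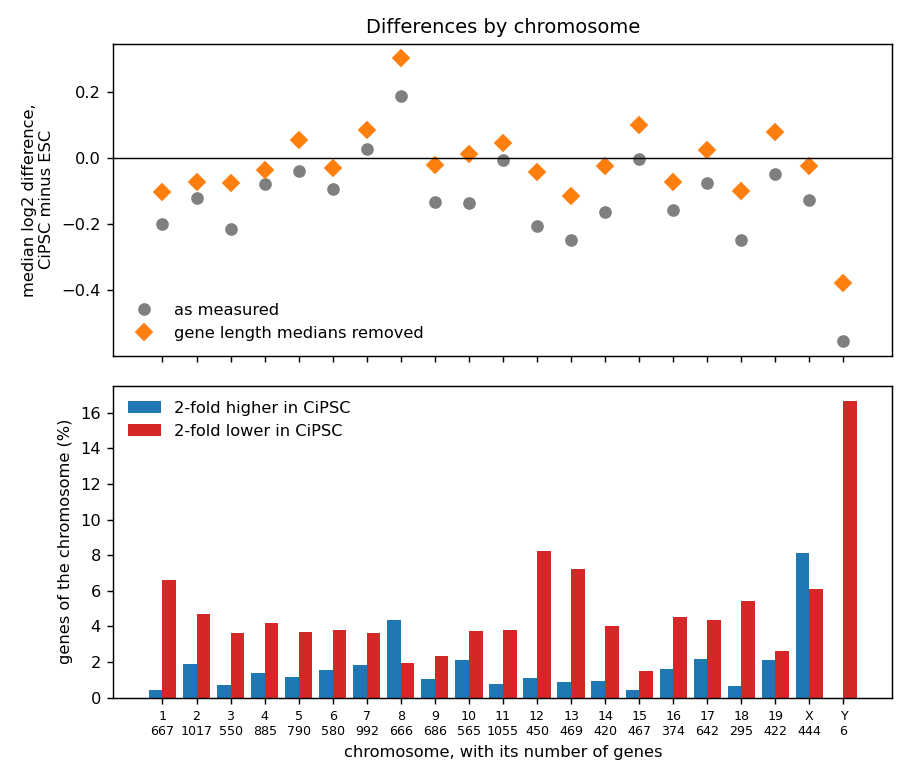
Top, the median log2 difference (CiPSC minus ESC) of each chromosome's measured genes, as measured (grey) and after removing gene length medians (orange); bottom, the percent of each chromosome's genes 2-fold higher (blue) or lower (red). Chromosome 8 has the highest median at 0.19, the X chromosome has the highest share of higher genes at 8.11%, and the Y chromosome rests on 6 genes.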

How the data were processed

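The 30 samples comprised 14 bulk RNA-seq, 12 single-cell and 4 bisulfite libraries, and only the bulk table was analysed here. Its values are FPKM as deposited by the authors. Per the labels' protocols, libraries were made from total RNA with the NEBNext Ultra RNA kit. Per the submitters' processing notes the build was mm10, and FastQC, Cell Ranger 2.0.1, Bismark and Bowtie2 were used, with no role given. For the bulk table, the sources used here do not give the aligner, counting tool, annotation or use of strand.

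Reads were recovered from the FPKM values, since an entry's values differ between libraries only by reads and library total. Gene lengths came out whole within 0.001 base for 100% of 23178 entries. Recovered reads gave exact 95% binomial (Clopper-Pearson) intervals for FPKM ratios, and a floor of 3 reads for ratios against 0. PCR copies are not independent molecules, so both cover counting error only. Differences were taken on log2(FPKM + 1), which understates the change of low genes, with a minimum of 1 FPKM in either library. No gene-wise test was run, because each group has 1 library. Python 3.11.15, pandas 2.3.3 and scipy 1.17.1 were used, and the calling step was tested on simulated data.

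Gene lists (42) and members were chosen with earlier results of these data known. Genes were named if they were key genes, among the 4 largest changes of at least 2-fold in a list, among the 15 largest rises or falls at 10 FPKM or more, or in a stretch of neighbours called in the same direction; other list members, and genes marked so in the text, are examples picked after their values were seen. Some genes that meet this rule are not reported here. Chromosomes and promoter windows were matched by symbol to RefSeq tables of GRCm38.p6, the same build, and 97.0% of the 12821 genes had a chromosome. A check of CpG content over all higher and lower genes was void because fewer than 80% had a window (67.4% and 57.8%), so it is given for the X chromosome only. Alternatives changed the pseudocount, the low-value filter, the scaling and the call rule. Removal of gene length medians (20 bins), chromosome medians at 5 FPKM, and counts without X-linked or 2-cell-like genes were added after seeing the data.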

Additional observations from a re-analysis of the deposited data

How the results depend on the processing

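No paired analysis was possible because each group has 1 library, and for the same reason no replicate could be left out. The count of 230 higher genes became 455 with a pseudocount of 0.1, 488 with none, 141 at a minimum of 5 FPKM, 104 at 10 FPKM, and 112 where the whole counting interval had to pass 2-fold. The count of 611 lower genes became 1130, 1203 and 290 with a pseudocount of 0.1, with none and at 10 FPKM, and 1024 when values were scaled to equal sums as TPM are. Under that scaling the median over all genes moved by -0.12, and under median-of-ratios scaling by 0.08. The higher share of all genes past 2-fold was 27.3%, and 18.4% to 37.1% under the alternatives. With gene length medians removed the counts were 242 and 443. Without the X chromosome 194 genes were higher, and without 2-cell-like genes and lower stretches 525 were lower. For the 83 other values, 738 alternatives gave 631 inside the main value's 95% interval (counting error for a gene, spread of members for a median) and 107 outside it, and 0 genes past 2-fold changed direction. The sign of the value differed in some alternative for Dppa5a, Lin28a, Sox2, Zfp42, chromosome 7 and the medians of the ERK feedback, core pluripotency, extraembryonic endoderm and paternally expressed lists. The 2-cell-like median ranged from -2.96 to -1.51, the Rhox median from 0.73 to 2.24 and the chromosome 8 median from 0.07 to 0.31. With 1 library on each side, the spread between cultures or lines is unknown, and genes with few reads have intervals spanning more than 10-fold.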

Other observations

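Some further stretches of neighbours hold annotated genes. On chromosome 7, Obox6, Crxos and Sepw1 were all higher, with the homeobox genes Obox6 at 7.83 FPKM in the CiPSC and 2.26 FPKM in the ESC library and Crxos at 4.13 and 1.33 FPKM. Crxos was at 52.4 FPKM at SIII D21 and at 0 FPKM in MEFs. On chromosome 14, Fam25c (139 and 45.9 FPKM), Sncg (8.17 and 2.41 FPKM) and Mmrn2 (3.60 and 0.77 FPKM) were all higher. On chromosome 5, 5 genes from Ccng2 to Cnot6l were all lower, with Cnot6l, a subunit gene of the mRNA deadenylase complex, at 4.99 and 12.4 FPKM. At SIII D21 Ccng2 was at 5.07 FPKM and Cnot6l at 10.0 FPKM. The length-adjusted values of Sepw1 (0.82) and Ccng2 (-0.99) fell inside the 2-fold line.

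Among list members of other cell types, the neural gene Map2 was at 0.58 and 2.19 FPKM and the endothelial gene Tek at 1.22 and 3.78 FPKM, each with a length-adjusted value of -0.83. The early mesoderm gene T was at 0.52 and 1.95 FPKM, and the smooth muscle genes Acta2 (1.61 and 0.37 FPKM) and Tagln (4.72 and 2.12 FPKM) lay the other way without reaching 2-fold on the log2(FPKM + 1) scale.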
